A study of Mus musculus with 4 samples.

Results

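The genes described here are 10 mouse genes whose products take part in, or bear on, the folding, hydroxylation, cleavage, crosslinking or deposition of collagen. They are Pcolce, Pcolce2, Bmp1, Cthrc1, Serpinh1, Lox, Loxl1, P4ha1, P4ha2 and Plod1. They were chosen by name, for their roles and with the changes of Pcolce and Cthrc1 in these data already known, from 18193 genes with a probe set that the platform annotation gives a single symbol. All 10 had such a probe set, 19 in total. Total RNA of the mouse embryonic stem (ES) cell line CGR8 was hybridised to 4 Affymetrix arrays. On 2 arrays the cells had received 1000 U/ml of leukemia inhibitory factor (LIF), a cytokine that holds ES cells undifferentiated, and on the other 2 they had been in medium lacking LIF, for 2 days. Both groups were cultured on gelatin with serum replacement in the medium, and no feeder cells are named in the labels. The labels number the arrays 1 and 2 in each group and do not say that they came from separate cultures, so the spread within a group may be technical, and a single cell line was used.

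Collagen chains are folded into a triple helix in the endoplasmic reticulum, where prolines and lysines are hydroxylated by enzymes such as the P4h and Plod families and the chaperone Serpinh1 holds the helix. After secretion, proteinases of the Bmp1 and tolloid family remove the C-terminal propeptide, which the enhancers Pcolce and Pcolce2 speed up, and lysyl oxidases such as Lox and Loxl1 crosslink the fibres. Endoderm that can form in ES cell cultures is known for making much basement membrane collagen.

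Values are MAS5 signals, which have no physical unit and cannot be compared between genes. Each gene is described by its brightest probe set, by mean log2 signal, unless stated otherwise, and differences are log2 signals without LIF minus with LIF, with the standard error (SE) of a linear model fitted to all genes with limma. The comparison of the groups belongs to the rule that chose the genes, so their differences are given as a description and not tested. A signal under 22.9, the 30th percentile of mean signals, is called dim here. Of the 10 genes, 9 had a mean log2 signal above that level, and Lox lay below it. Median signals of the arrays were 59.6 to 95.5. All 12 markers of ES cells had bright signals on every array, with Pou5f1 at 7212 to 10631.6. Their summed signal was 138600 and 162300 with LIF against 82110 and 113800 without LIF, and most single markers were lower. In 8 markers the groups did not overlap and were lower without LIF, and in 1, Lin28a, higher. Over all 14445 genes above the dim level these shares were 15.2% and 27.3%. In 5 markers, all lower without LIF, the groups also lay at least 2-fold apart, against 2.12% of all genes lower by that measure. The log2 difference was 0.02 for Pou5f1, 0.87 for Lin28a and -2.27 for Esrrb, the 1 marker that passed limma (adjusted p = 0.031). RNA of all cells of a culture was measured together, so fewer cells of a type and less RNA per cell cannot be told apart.

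The groups did not overlap in 6 of the 10 genes, 3 higher and 3 lower without LIF, and in 3 (Pcolce, Cthrc1 and Bmp1) they also lay at least 2-fold apart. Over all 14445 genes with a mean signal above the dim level, 42.5% showed no overlap, 27.3% higher and 15.2% lower without LIF, and 9.48% were also at least 2-fold apart. Because the genes were chosen with this contrast known, these counts carry no weight beyond a description. Serpinh1 lay just outside the 2-fold limit with a log2 difference of 0.91, and Bmp1, at 2.26, was the smallest of those inside it.

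**Figure D1:**
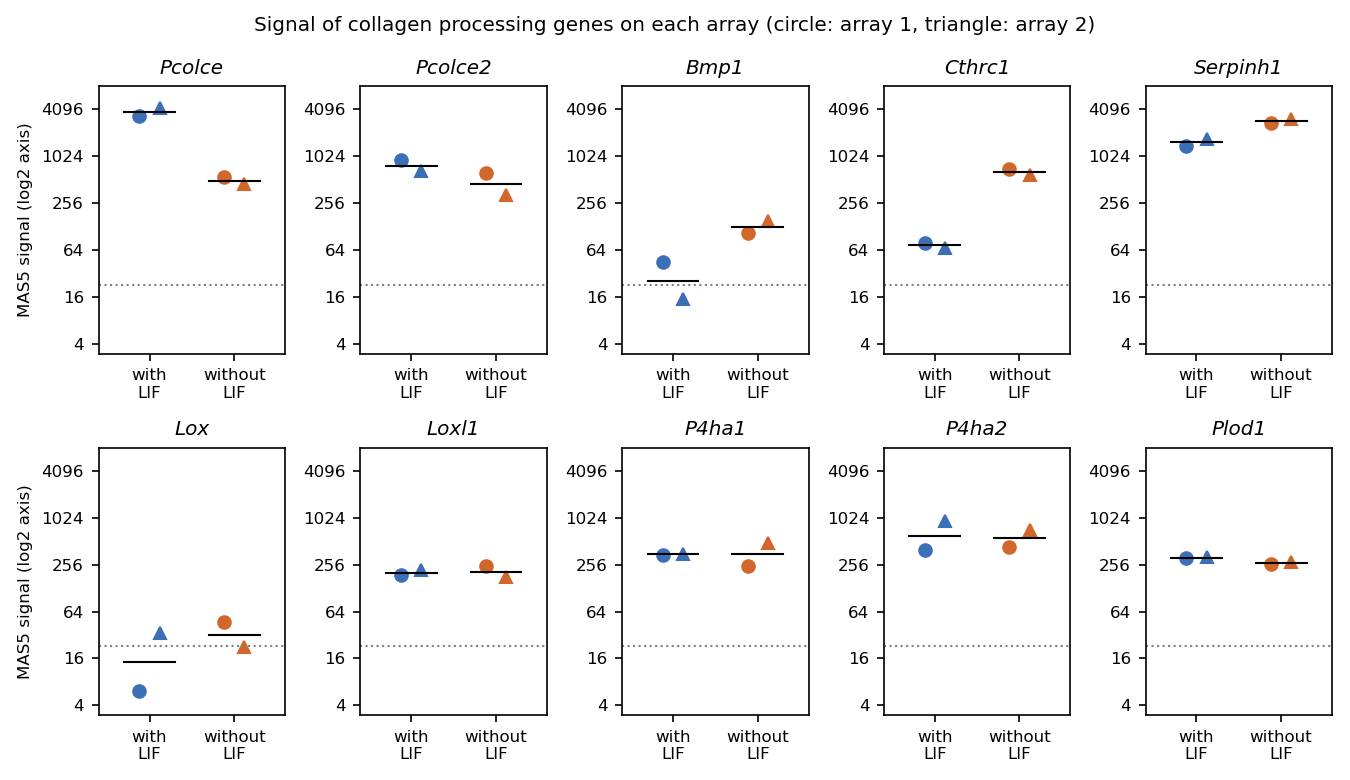
MAS5 signal (log2 axis) of the brightest probe set of each of the 10 genes on each array. Circles are arrays numbered 1, triangles arrays numbered 2, blue is with LIF and orange without LIF, horizontal bars are geometric means of 2 arrays and the dotted line is the dim level of 22.9. Pcolce is lower and Cthrc1, Bmp1 and Serpinh1 are higher on both arrays without LIF, while the P4ha2 arrays differ by number.

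Among the genes of propeptide removal, Pcolce had the largest difference. Pcolce encodes a secreted glycoprotein that binds the C-propeptide of procollagen and raises the rate at which Bmp1 cleaves it. Its signals were 3369 and 4223 on arrays 1 and 2 with LIF against 552 and 453 without LIF. Both arrays without LIF were therefore far below both with LIF. The means were 3796 ± 604 and 502.8 ± 69.9 (SD, n = 2), a log2 difference of -2.91 (SE 0.21), or 7.54-fold. A second probe set of Pcolce read 1219 and 1417 with LIF against 254 and 228 without LIF, a log2 difference of -2.45. Within the arrays numbered 1 and 2 the difference of the brighter probe set was -2.61 and -3.22.

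Pcolce2, a second enhancer of the same step, was lower too, by less. It read 929 and 654 with LIF against 625 and 327 without LIF. The groups did not overlap, but array 2 with LIF and array 1 without LIF were nearly equal. The log2 difference was -0.78 (SE 0.35), at -0.57 for the pair of arrays numbered 1 and -0.998 for the pair numbered 2. Omitting array 2 without LIF gave -0.32, and omitting array 1 of that group gave -1.25.

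The promoters of these paralogs are shown because LIF acts through the transcription factor Stat3, whose recognition motif can be searched for in them. They are the 250 bases before the start of each gene in RefSeq (assembly GRCm38.p6), for Pcolce chr5:137611405-137611654 on the minus strand and for Pcolce2 chr9:95637378-95637627 on the plus strand, written 5′ to 3′ on the strand of the gene. Capitals mark the motif TTCNNNGAA of STAT factors and the GC box GGGCGG, on either strand.
Pcolce: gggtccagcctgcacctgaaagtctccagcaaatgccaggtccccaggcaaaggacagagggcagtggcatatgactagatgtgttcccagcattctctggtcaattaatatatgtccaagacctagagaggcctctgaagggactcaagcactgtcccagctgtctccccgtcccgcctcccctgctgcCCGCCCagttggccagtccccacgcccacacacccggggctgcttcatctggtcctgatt
Pcolce2: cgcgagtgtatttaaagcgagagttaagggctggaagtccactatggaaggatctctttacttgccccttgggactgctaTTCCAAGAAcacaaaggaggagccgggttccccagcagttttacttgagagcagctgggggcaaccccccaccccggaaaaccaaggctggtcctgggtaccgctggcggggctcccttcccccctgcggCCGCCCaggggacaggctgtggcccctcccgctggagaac
The Pcolce window held no TTCNNNGAA and 1 GC box. The Pcolce2 window held 1 of each, the STAT motif beginning 170 bases before the start. Among all 32851 promoter windows of this length in the table, 7.02% held TTCNNNGAA and 32.7% the GC box. A match is a stretch of letters and not a measured binding site, and these windows say nothing about more distant sequence.

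Bmp1, the proteinase that removes the C-propeptide, was higher without LIF on its brightest probe set. The signals were 44.4 and 15.2 with LIF against 105 and 149 without LIF. The groups did not overlap, and array 2 with LIF was dim, which makes the size uncertain. The log2 difference was 2.26 (SE 0.66), at 1.24 for the pair of arrays numbered 1 and 3.29 for the pair numbered 2. The other probe sets of Bmp1 were dimmer and differed less. One read 26.3 and 22.6 with LIF against 28.6 and 37.4 without LIF, and the other read 33.8 and 9.8 with LIF against 3.6 and 39.9 without LIF, in which the groups overlapped. With the mean of its 3 probe sets Bmp1 had a log2 difference of 0.70 and was no longer among the genes at least 2-fold apart, which were then 2. The tolloid genes Tll1 and Tll2, which encode proteinases of the same family, had mean log2 signals below the dim level and were not tested. Tll1 read 1.0 and 17.2 with LIF against 26.4 and 23.5 without LIF, so that it passed the level in the group without LIF, and Tll2 read 1.2 to 1.6.

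Of Serpinh1, P4ha1, P4ha2 and Plod1, which act in the endoplasmic reticulum, Serpinh1 had the largest difference. It encodes the collagen chaperone Hsp47. Its signals were 1386 and 1726 with LIF against 2743 and 3098 without LIF. The means were 1556 ± 240 and 2921 ± 251 (SD, n = 2), a log2 difference of 0.91 (SE 0.20), or 1.88-fold. A second probe set read 856 and 1004 with LIF against 1904 and 1914 without LIF, a log2 difference of 1.04, and the differences within the numbers were 0.98 and 0.84 for the first and 1.15 and 0.93 for the second. Both probe sets thus gave about the same size on each pair of arrays.

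The mean levels of the hydroxylases differed little between the groups, with a wide spread in P4ha1 and P4ha2. P4ha1 and P4ha2 encode catalytic subunits of prolyl 4-hydroxylase, whose product stabilises the helix. P4ha1 read 341 and 355 with LIF against 246 and 487 without LIF. The arrays without LIF lay on either side of those with LIF, and the log2 difference was -0.01 (SE 0.36). The second probe set of P4ha1 read 207 and 343 with LIF against 233 and 413 without LIF, a log2 difference of 0.22 with overlapping groups. P4ha2 read 390.5 and 920 with LIF against 437 and 708 without LIF, a log2 difference of -0.11 (SE 0.44). Both arrays numbered 2 were higher than both numbered 1, whatever the group. With 1 array left out the log2 difference ranged from -0.50 to 0.49 for P4ha1 and from -0.73 to 0.51 for P4ha2.

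Plod1, a lysyl hydroxylase, read 310 and 321 with LIF against 263 and 274 without LIF. The groups did not overlap, and the arrays of a group were nearly equal. The log2 difference was -0.23 (SE 0.26), and that SE is larger than the spread of these arrays because limma shares the spread over all genes. With array medians aligned the median over all genes moved from 0.09 to -0.20, and Plod1 to -0.52. Its other probe set was dim on array 2 with LIF, where it read 3.9 against 38.9, 28.1 and 48.8 elsewhere, and with the mean of both probe sets the log2 difference was 0.68.

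The promoters of P4ha1 and P4ha2 are shown because both genes are known targets of hypoxia-inducible factors in other cells, whose core motifs are ACGTG and GCGTG. They are 250 bases each from the same RefSeq table, for P4ha1 chr10:59323046-59323295 and for P4ha2 chr11:54100674-54100923, both on the plus strand. Capitals mark the core motifs on either strand.
P4ha1: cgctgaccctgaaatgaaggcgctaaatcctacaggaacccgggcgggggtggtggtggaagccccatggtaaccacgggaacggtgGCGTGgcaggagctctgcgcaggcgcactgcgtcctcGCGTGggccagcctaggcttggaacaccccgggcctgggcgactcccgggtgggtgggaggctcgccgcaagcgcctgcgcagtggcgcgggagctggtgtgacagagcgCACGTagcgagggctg
P4ha2: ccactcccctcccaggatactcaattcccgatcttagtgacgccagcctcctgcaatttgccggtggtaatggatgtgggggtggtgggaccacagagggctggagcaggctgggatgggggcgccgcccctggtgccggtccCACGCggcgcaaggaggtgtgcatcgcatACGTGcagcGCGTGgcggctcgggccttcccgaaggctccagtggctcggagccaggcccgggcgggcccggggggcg
Each window held 1 ACGTG and 2 GCGTG. For P4ha1 they began 16, 163 and 126 bases before the start, and for P4ha2 78, 107 and 69 bases before it. The motif ACGTG occurred in 16.6% and GCGTG in 28.2% of the 32851 windows. The Plod1 window held 0 ACGTG and 1 GCGTG, and that of Serpinh1 held 1 ACGTG and 0 GCGTG. Of the 10 genes, 6 had a promoter in that table, and Bmp1, Cthrc1, Lox and Loxl1 did not.

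In the brightest probe sets of both crosslinking enzymes the groups overlapped. Lox, which oxidises lysines of collagen and elastin, had 3 probe sets with mean signals below the dim level. The brightest read 6.1 and 33.5 with LIF against 46.4 and 22.6 without LIF, with overlapping groups and a log2 difference of 1.18. The others had log2 differences of -0.50 and -0.47, and the groups overlapped in both. Differences this close to the background have no dependable direction. Loxl1, a related oxidase, read 190 and 216 with LIF against 245 and 177 without LIF. The arrays without LIF lay on either side of those with LIF, and the log2 difference was 0.04 (SE 0.32) and became -0.25 with array medians aligned. Its other probe set was at 2.8 to 5.4 on the 4 arrays, with no overlap.

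Cthrc1 had the largest positive difference of the 10 genes. It encodes a secreted protein with a short collagen-like stretch, found at sites of matrix remodelling and known for lowering collagen deposition. Its only probe set read 79.8 and 67.7 with LIF against 701 and 584 without LIF. Both arrays without LIF were far above both with LIF, and the arrays of a group were close. The means were 73.8 ± 8.56 and 642.5 ± 82.7 (SD, n = 2), a log2 difference of 3.12 (SE 0.30), or 8.71-fold. The differences within the numbers were 3.14 and 3.11.

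**Figure D2:**
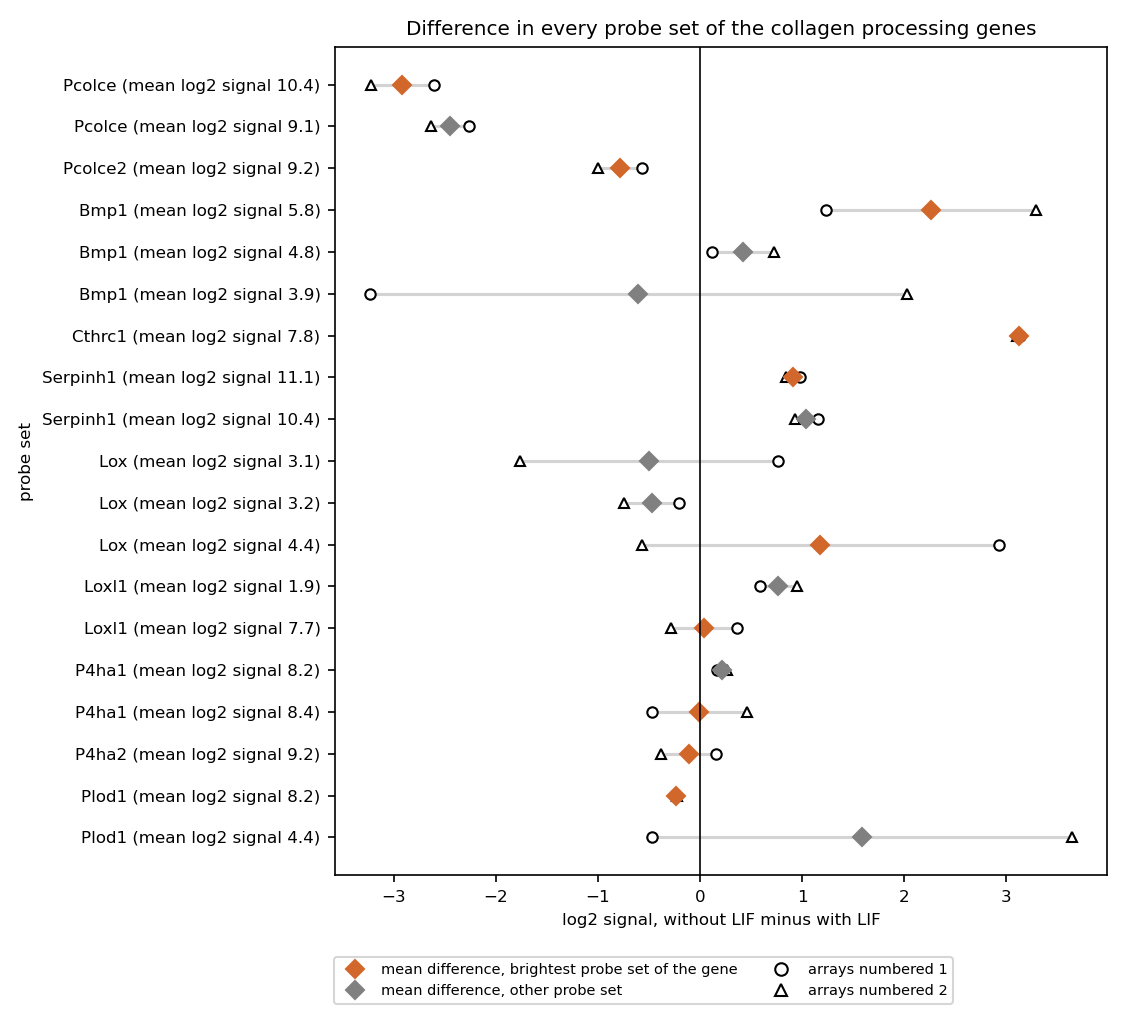
Log2 signal without LIF minus with LIF for the 19 probe sets of the 10 genes, each labelled with its mean log2 signal. Diamonds are differences of group means (orange for the brightest probe set of a gene), circles and triangles are the differences within arrays numbered 1 and 2. The Pcolce, Serpinh1 and Cthrc1 probe sets keep their direction within both numbers, and the widest spreads belong to probe sets with a mean log2 signal under 6.

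Of the 7 genes with more than 1 probe set, 3 (Pcolce, Serpinh1 and Loxl1) had the same direction in all of them. For Loxl1 this carries little weight. Its brightest probe set differed by 0.04, and the other had a mean log2 signal of 1.92, below the dim level. The probe sets that went against the brightest one of Bmp1, Lox and Plod1 had mean log2 signals of 3.89, 3.09, 3.20 and 4.42, all below the dim level of 4.51 on that scale. In P4ha1 both probe sets were brighter, and their differences of -0.01 and 0.22 were smaller than the SE of the brighter one, 0.36.

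Some of these genes differed in the same direction between arrays 2 and 1 in both groups, as did many of all tested genes. Of the 9 genes above the dim level, 4 (Serpinh1, P4ha1, P4ha2 and Plod1) were higher on array 2 in both groups and 2 (Pcolce2 and Cthrc1) were lower in both, against 32.0% and 31.7% of all 14445 genes. On the log2 scale P4ha2 was higher on array 2 by 1.24 (with LIF) and 0.70 (without LIF). The corresponding differences were 0.32 and 0.18 for Serpinh1, -0.51 and -0.93 for Pcolce2, and only 0.05 and 0.05 for Plod1. The 3′ to 5′ ratio of the Actb control, which rises as RNA degrades, was 1.32 (with LIF) and 1.44 (without) for arrays 1, against 1.83 and 1.77 for arrays 2. Its part in these differences was not tested.

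**Figure D3:**
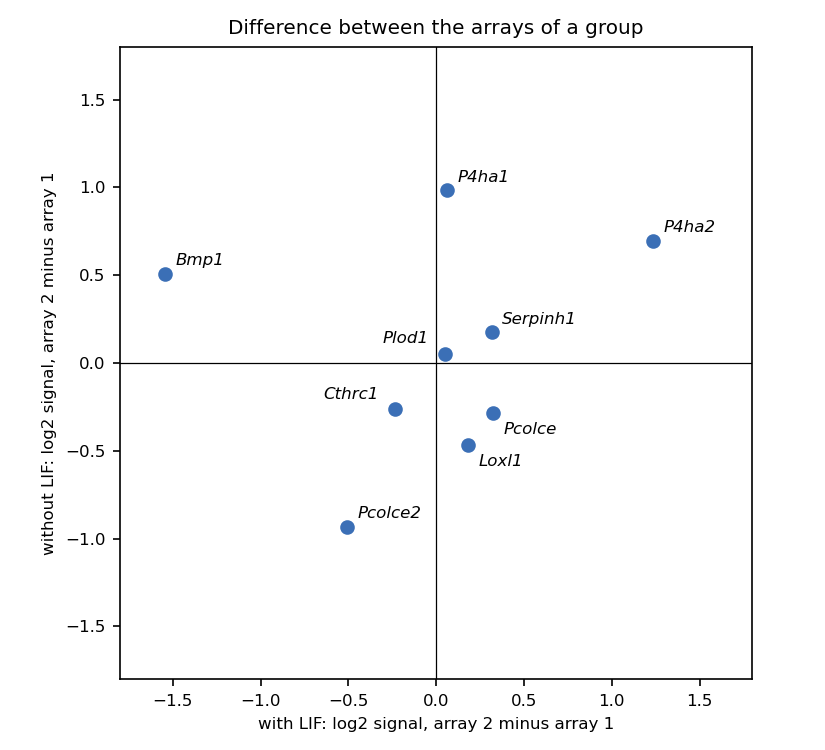
Log2 signal of array 2 minus array 1 with LIF (horizontal axis) and without LIF (vertical axis) for the 9 genes above the dim level, 1 point a gene. P4ha2 lies at 1.24 and 0.70, Pcolce2 at -0.51 and -0.93, and Cthrc1 and Plod1 lie near the origin.

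Markers of other collagen-making cells moved with the array number. Of 20 markers of primitive and parietal endoderm, a list that also holds visceral endoderm genes such as Cubn, 17 were higher on array 2 in both groups. On arrays 1 and 2 their summed signal was 9170 and 19580 with LIF, and 10920 and 38430 without it. Within these sums Cubn read 262 and 1447 with LIF, and 477 and 6045 without it. The median log2 difference of this list was 0.69, but 0.07 on omitting array 1 with LIF, -0.25 on omitting array 2 without LIF, 1.25 on omitting array 2 with LIF and 1.496 on omitting array 1 without LIF. Of the 20 fibroblast and mesenchyme markers 14 were tested, 8 of which were lower on array 2 in both groups, and the median log2 difference was 0.34 (0.04 with array medians aligned, -0.11 with quantile normalization). The groups did not overlap in 4 of the 14, 3 higher and 1 lower without LIF, against 42.5% of all genes. Within both numbers 8 of the 14 were higher and 1, Vim, was lower without LIF, a count not made over all genes. The summed signal of the 14 was 11910 and 11310 with LIF against 10980 and 6886 without LIF, most of it from Vim. The other 13 summed to 2568 and 1603 with LIF against 4404 and 2676 without LIF. No marker was at 0. The contractile genes Tagln (278 and 78.6 with LIF against 749 and 272.5 without LIF) and Acta2 (905 and 244 with LIF against 1629 and 540.5 without LIF) had log2 differences of 1.61 and 0.997 with overlapping groups, and those of Dcn and Mmp2 were 1.43 and 1.07 with no overlap. Other markers of this list differed little, with log2 differences of -0.06 for Col1a1, 0.15 for Col3a1, -0.04 for Pdgfra and -0.09 for Postn, all with overlapping groups. The dimmest marker, Fap, read 2.3 to 12.5. Serpinh1 is strongly made by both cell types, and its differences within the numbers were 0.98 and 0.84. Endoderm sums were 1.19 and 1.96 times as high without LIF as with LIF, and fibroblast sums 0.921 and 0.609 times. With Vim left out, the fibroblast sums were higher without LIF in both numbers, but Acta2 and Tagln, whose groups overlapped, made up part of those sums. The part of these cell types in the Serpinh1 and Cthrc1 values was not tested.

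The substrates of these enzymes were measured as a list of 21 collagen chains, chosen by name. Of 19 tested chains 0 passed limma at an adjusted p of 0.05 (3 at an unadjusted p under 0.05), and 21 of all 14445 genes passed (0.145%). Leaving out array 1 without LIF gave 3 calls (Col18a1, Col4a1 and Col4a2, all higher), and leaving out array 2 without LIF gave 1 (Col18a1). The median log2 difference of the list was 0.58 against 0.09 over all tested genes. With array medians aligned, a shift shared by all genes, it was 0.28 against -0.20, and with quantile normalization 0.32 against 0.02. It was 0.33 to 0.94 with 1 array left out, the lowest on omitting array 2 with LIF and the highest on omitting array 2 without LIF. In 9 chains the arrays without LIF were all higher, and in 0 all lower, against 27.3% and 15.2% of all genes. Col18a1, a basement membrane chain and the source of endostatin, read 1430 and 1024 with LIF against 3044 and 3215 without LIF (log2 difference 1.37, SE 0.22, limma adjusted p = 0.077). Col5a2, a chain of the fibrillar type V collagen, read 135 and 116 with LIF against 246 and 321 without LIF (1.17, SE 0.32, limma adjusted p = 0.24). Col27a1 and Col4a6 had log2 differences of 1.40 and 1.14 (limma adjusted p = 0.28 and 0.48), and none of these groups overlapped.

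Col1a1, the main fibrillar chain, read 107 and 35.4 with LIF against 118 and 29.3 without LIF, so both arrays numbered 1 lay above both numbered 2 (log2 difference -0.06, SE 0.84). Col4a1, of basement membranes, read 1052 and 2090 with LIF against 1714 and 5521 without LIF (1.05, SE 0.55, limma adjusted p = 0.55). Its groups overlapped, and it was higher on array 2 in both groups, as the endoderm markers were, to which it also belongs.

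Other enzymes and chaperones of the endoplasmic reticulum had a list median close to that of all genes, with single genes on either side. Of the 27 genes of this list 24 were tested, 0 passed limma at an adjusted p of 0.05 (and 0 had an unadjusted p under 0.05), and the median was 0.09 (-0.21 with array medians aligned). The groups did not overlap in 8 of the 24, 6 higher and 2 lower without LIF, against 42.5% of all genes. The prolyl 3-hydroxylase P3h2 read 61.2 and 70.7 with LIF against 116 and 139 without LIF (log2 difference 0.95, SE 0.40, limma adjusted p = 0.46). P3h4, a partner of the lysyl hydroxylases, and Sil1, an exchange factor of the chaperone Hspa5, had log2 differences of 0.64 and 0.51, and the cation channel Tmem38b, needed for collagen assembly in bone, -0.58. P4hb, the subunit that P4ha1 and P4ha2 share, had a log2 difference of 0.16 (SE 0.26), and the lysyl hydroxylase Plod2 one of 0.47 (SE 0.36). Fkbp10 was without a probe set of a single symbol.

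Among 18 tested extracellular partners, of 28 chosen, 0 passed limma at an adjusted p of 0.05 (4 at an unadjusted p under 0.05; Mep1b passed when array 2 without LIF was omitted), and the median was 0.26 (-0.03 with array medians aligned, -0.07 on omitting array 1 without LIF, and 0.68 on omitting array 2 without LIF). The groups did not overlap and lay at least 2-fold apart in 3 genes that were higher and 1 that was lower without LIF, against 7.36% and 2.12% of all genes. Mep1b, a subunit of the meprin proteinases, which can also cleave procollagen, read 505 and 704 with LIF against 191 and 327 without LIF (log2 difference -1.26, SE 0.34, limma adjusted p = 0.23). The small proteoglycan Dcn read 67.3 and 53.1 with LIF against 172 and 151 without LIF (1.43, SE 0.40, limma adjusted p = 0.24). The gelatinases Mmp2 and Mmp9 had log2 differences of 1.07 and 1.31 (limma adjusted p = 0.33 and 0.37).

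Of the 22 tested hypoxia-inducible genes, a list made because P4ha1, P4ha2, Plod1 and Lox respond to hypoxia in other cells, 0 passed limma at an adjusted p of 0.05 (4 at an unadjusted p under 0.05). Ddit4 passed when array 1 without LIF was omitted, and Kdm3a when array 2 without LIF was. The median was -0.22 (-0.51 with array medians aligned). The histone demethylase Kdm3a read 6501 and 5793 with LIF against 2682 and 3516 without LIF (log2 difference -0.999, SE 0.20, limma adjusted p = 0.12), and Ankrd37 had a log2 difference of -0.88. The glucose carrier Slc2a1 and the mTOR inhibitor Ddit4 went the other way, with log2 differences of 0.59 and 1.08. Vegfa read 218 and 241 with LIF against 101 and 229 without LIF (-0.59, SE 0.43). The list thus held genes in both directions, and P4ha1 and P4ha2 at -0.01 and -0.11 lay between them.

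**Figure D4:**
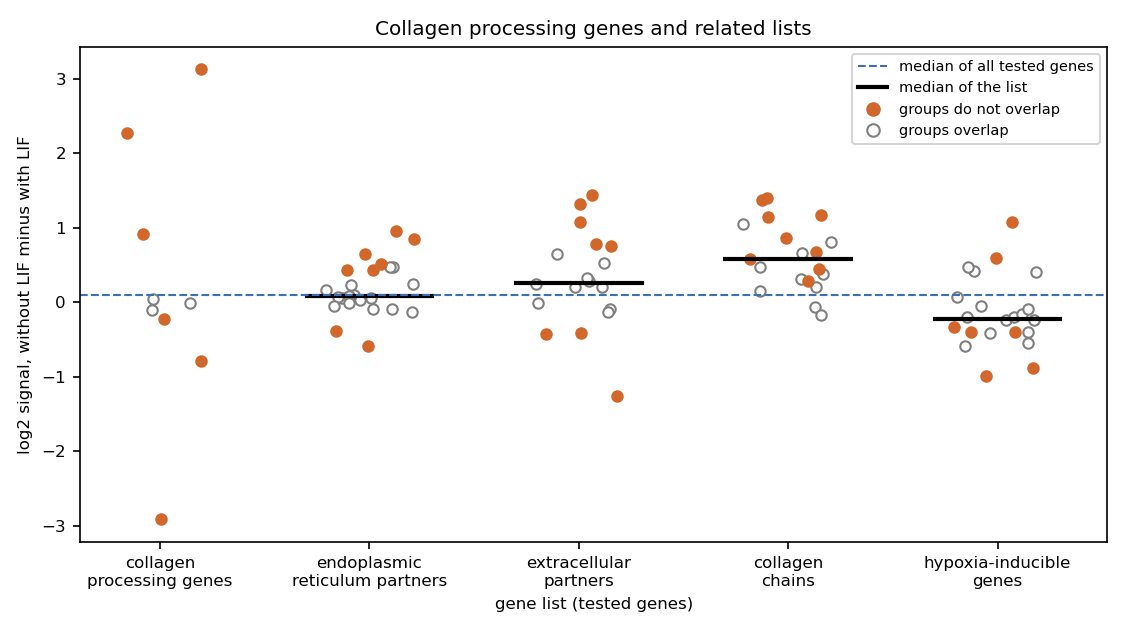
Log2 signal without LIF minus with LIF of the 9 tested collagen processing genes and of 4 related gene lists, 1 point a gene. Filled points are genes whose groups do not overlap, black bars are list medians (0.09, 0.26, 0.58 and -0.22) and the dashed line is the median of all tested genes, 0.09. Pcolce at -2.91, Cthrc1 at 3.12 and Bmp1 at 2.26 lie outside the range of the tested genes of the 4 related lists. The collagen processing genes were chosen with this contrast known. With the mean of its probe sets Bmp1 was at 0.70, and Tll1, below the dim level and not drawn, was at 2.59.

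The genes whose centred log2 signals over the 4 arrays lay nearest to those of Pcolce and Cthrc1, by Euclidean distance, were looked up among all tested genes. For Pcolce they were Ly6g6e, of the Ly6 family of membrane-anchored proteins, at a distance of 0.27, the helix-loop-helix factor Msc (0.45) and Dkkl1, a relative of the Dickkopf proteins (0.52). Ly6g6e read 600 and 810 with LIF against 84.5 and 87.7 without LIF. For Cthrc1 they were Btbd17 (0.17), A630001G21Rik (0.36) and the hyaluronan synthase Has2 (0.36). Has2 read 48.5 and 30.8 with LIF against 382 and 366 without LIF. Dkkl1 was dim without LIF (8.3 and 9.4) and A630001G21Rik with LIF (8.8 and 8.7), so their distances rest in part on background values and their sizes of difference are uncertain. With 4 arrays such a likeness mainly reflects the direction and fitted size of the difference.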

How the data were processed

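Transcripts were measured on 4 Affymetrix arrays, 2 with and 2 without LIF, grouped by title. The authors deposited 1 linear MAS5 intensity per probe set and array, per the submitters' processing notes; the version and a genome build are not given in the sources used here. The table held 45101 probe sets, of which 34945 had 1 symbol. One value at 0 was set to the smallest positive value, and log2 was taken. Each gene was represented by its brightest probe set (highest mean over the 4 arrays), and 14445 of 18193 passed a filter at the 30th percentile (log2 4.51). Groups were compared with limma 3.58.1 in R 4.3.3 (lmFit, eBayes with trend, 2 residual degrees of freedom, two-sided, Benjamini-Hochberg over all tested genes, threshold 0.05), which was also tested on simulated data. Precision is limited by 2 arrays a group. The 10 genes and the lists were chosen with earlier results of these data known. Besides the 10 genes, the text names up to 4 tested genes of each list with the smallest p, the fixed genes Fkbp10, Plod2, P4hb, Col1a1, Col4a1 and Vegfa, and 3 genes most like Pcolce and Cthrc1. Tll1, Tll2, Vim, Tagln, Acta2, Fap, Col3a1, Pdgfra, Postn, Pou5f1, Lin28a, Esrrb and Cubn were named after their values were seen. Figures used matplotlib 3.10.9 (Python 3.11.15).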

Additional observations from a re-analysis of the deposited data

How the results depend on the processing

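The 14 alternatives changed the filter (none, or the 50th percentile), the pseudocount (20th percentile of signals), the scaling (quantile normalization or aligned array medians), the variance model (no trend, or robust), the choice of probe set (their mean, or the brightest plain one), the use of the replicate number (as a block) and the arrays (each left out). Pcolce, Pcolce2, Bmp1, Cthrc1 and Serpinh1 kept their direction in each alternative that gave a value, though the filters, variance models and block leave a log2 difference as it is by construction. Pcolce and Serpinh1 have no plain probe set. Lox, Loxl1, P4ha1, P4ha2 and Plod1 changed sign in 1, 4, 3, 2 and 1 of them. Across the array leave-outs Pcolce ranged from -3.08 to -2.75, Cthrc1 from 2.99 to 3.25, Serpinh1 from 0.76 to 1.07, Bmp1 from 1.49 to 3.04, Pcolce2 from -1.25 to -0.32, Lox from -0.05 to 2.41, Loxl1 from -0.20 to 0.27, P4ha1 from -0.50 to 0.49, P4ha2 from -0.73 to 0.51 and Plod1 from -0.26 to -0.20.

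Of all tested genes, 21 passed limma, 41 with the filter at the 50th percentile, 40 with the pseudocount, 10 with quantile normalization, 131 with aligned medians, 0 without the trend (1589 at an unadjusted p under 0.05), 52 with robust estimation and 12 with the mean of probe sets. Leaving out 1 array gave 7 to 496. The remaining array of a reduced group was then assumed to vary like the other group. The labels give the arrays of both groups the numbers 1 and 2 with no shared source named, and the differences of array 2 minus array 1 correlated at 0.29 between the groups across genes. With that number as a block (a pairing by number) 975 genes passed. The block also called 2 extracellular partners (Mep1b lower, Mmp2 higher), 3 collagen chains (Col18a1, Col4a1 and Col5a2, all higher) and 3 hypoxia-inducible genes (Ddit4 and Slc2a1 higher, Kdm3a lower), where the fit without it called 0. Leaving out 1 array gave 0 to 1 calls among extracellular partners, 0 to 3 among collagen chains (3 without array 1 without LIF) and 0 to 1 among hypoxia-inducible genes. The count of collagen processing genes at least 2-fold apart was 3, and 3 to 6 with 1 array left out: it was 6 without array 2 with LIF and 5 without array 1 without LIF. It was 2 with the mean of probe sets (Bmp1 lost), 2 with plain probe sets (Pcolce has none) and 4 with aligned medians (Pcolce2 gained). A lack of overlap is easier to reach with 1 array left in a group, so the higher leave-out counts may in part reflect this. The share of all genes was not compared at these settings. The counts without array 2 of either group include Lox, which lay below the dim level.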
